A study of Arabidopsis with 12 samples.

Results

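The histone genes of Arabidopsis thaliana were described here across seedlings of the mac3a3b double mutant and the wild type (WT), 3 days after heat and in control samples. Members were the rows of the deposited expression table whose gene description names a histone superfamily protein or a histone H1, H2A, H2B, H3 or H4, without rows that name acetyl or methyl groups, kinases or chaperones. The rule found 49 of 37825 genes. Of these, 45 encode core or linker histones, and 4 encode other proteins, some with a histone fold. Of the 45 histones, 28 are counted as replicative (5 for H3.1, 8 for H4, 4 for H2A and 11 for H2B). Variant genes number 16 (3 for H3.3, 4 other H3 genes, 1 for CENH3, 1 for H2A.X, 3 for H2A.W and 4 for H2A.Z). The remaining gene encodes the linker histone H1. Replicative is used here as a class name. It takes in every H2B gene and each H2A gene outside the variant classes, and expression of single genes in S phase was not tested. A further 5 histone loci carry descriptions that the rule does not reach and are given apart.

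Mutant 3 days and mutant control are seedlings that carry mutations in both MAC3A and MAC3B, genes for related proteins of the MOS4-associated complex, a partner of the spliceosome, and WT 3 days and WT control are the same 2 stages of the wild type. Each of the 4 groups holds 3 libraries, named by group and replicate number. The samples labelled as the double mutant are taken to be mac3a3b, the only mutant that the series text names. All plants grew on half-strength MS medium with 1.2% sucrose, and heat was given at 37 °C. Control in the titles is taken as the 0 hours of the series text, which counts from the end of heat. Whether control plants were sampled before heat or right after it is not stated, and no unheated sample taken at 3 days is named, so that heat, age and hour of sampling cannot be told apart in a comparison of 3 days with control.

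Histones package DNA into nucleosomes, each built from H2A, H2B, H3 and H4, while H1 binds the DNA between them. Replicative histones are made mainly in S phase and are loaded behind the replication fork, H3.1 by the chaperone CAF-1. Variant histones can be placed outside S phase: H3.3 is deposited by HIRA and ATRX at transcribed genes, H2A.Z by the SWR1 complex near gene starts, H2A.W marks heterochromatin, CENH3 marks centromeres, and in Arabidopsis H2A.Z nucleosomes are known for their response to warmth.

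Levels are in TPM, a length-corrected share of the transcripts of a library that holds no record of read depth. Differences are log2 fold changes on the log2(TPM + 1) scale, with the standard error of a limma fit to the 12 libraries after the ± sign, and on that scale weak genes show smaller changes than they had. A gene is said to have risen or fallen where its Benjamini-Hochberg adjusted p over the 22462 genes tested was under 0.05. The targeted genes, which check the labels, were lower in the mutant at both stages, MAC3A at 6.12 ± 0.623 TPM in mutant 3 days, 9.74 ± 0.59 TPM in mutant control, 60.4 ± 1.03 TPM in WT 3 days and 34.7 ± 1.19 TPM in WT control (SD, n = 3 each), and MAC3B with differences of -3.69 ± 0.055 at 3 days and -2.69 ± 0.055 at control. The median gene changed by -0.13 in the mutant and by 0.39 in WT between 3 days and control, and the median difference of mutant 3 days from WT 3 days was -0.51. Rescaling each library by the median of its gene ratios moved these medians to 0.0076, 0.011 and -0.073, and quantile normalization to 0.066, 0.0013 and 0.039. Because the medians moved by over 0.1, directions that depend on scaling are named below. Near-identical histone copies can share reads, which RSEM divides between them, so single copies of H3.1, H4, H2A, H2B and H3.3 are uncertain and sums over a class are given beside them. In these bulk samples, fewer cells of a type and less RNA per cell cannot be told apart.

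At 3 days, transcripts of replicative histones were lower than in control in both genotypes, and those of H3.1 and H4 were lowest in the mutant. The variants H3.3 and H2A.Z, by contrast, had sums of 0.97 and 1.18 times their control level in the mutant, where the direction turned for H3.3 with median-of-ratios scaling and for H2A.Z with quantile normalization, and 0.425 and 0.468 times in WT. Of the 49 members 46 passed the filter of at least 1 TPM in at least 3 libraries, and 44 reached a mean of 5 TPM in a group. In mutant 3 days against mutant control 11 of the 46 rose and 31 fell, where 39.4% of all genes tested rose and 46.5% fell. In WT 3 days against WT control 7 rose and 35 fell, where 54.9% of all genes rose and 26.4% fell. The median change of the members was -1.86 in the mutant and -1.53 in WT.

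Split by kind, 4 of the 27 replicative genes tested rose and 23 fell in the mutant, with a median of -2.86. In WT 1 rose and 24 fell, with a median of -2.04. Of the 15 variant genes tested 5 rose and 7 fell in the mutant (median -0.035), and 3 rose and 10 fell in WT (median -1.17). The median of the variants in the mutant was 0.16 with median-of-ratios scaling and -0.39 with quantile normalization, so its sign depends on the scaling. The 45 core and linker histones made up 0.247 to 0.252% in mutant 3 days, 0.514 to 0.571% in mutant control, 0.145 to 0.164% in WT 3 days and 0.474 to 0.535% in WT control, of the TPM of a library.

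**Figure D1:**
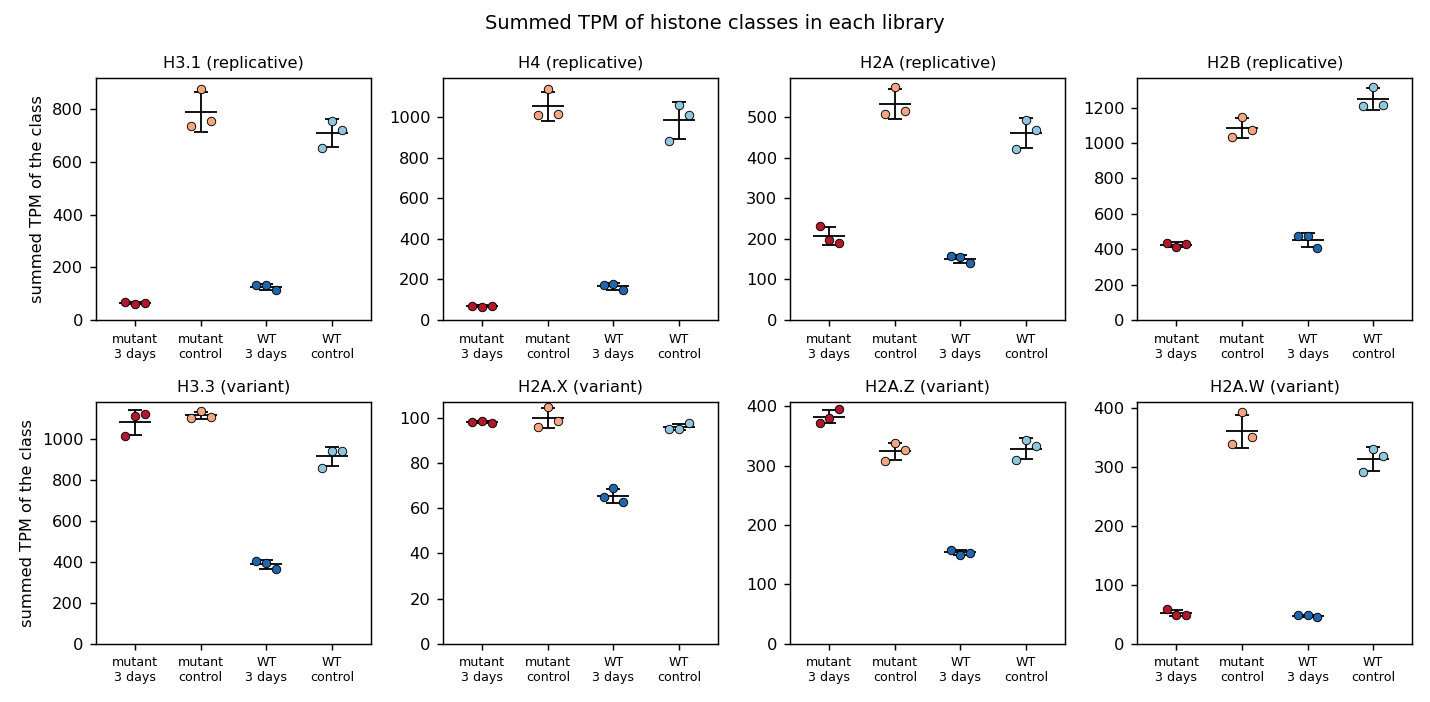
Summed TPM of 8 histone classes (vertical axes, TPM, each starting at 0) in every library of the 4 groups (points), with the mean and SD of 3 libraries (lines). H2A.X is H2AXA alone, without AT1G54690, which lies outside the rule. The H3.1 and H4 sums were at most 68.6 and 70.5 TPM in mutant 3 days and at most 133 and 179.8 TPM in WT 3 days, while the H3.3 sum was at least 1012 TPM in mutant 3 days and at most 405 TPM in WT 3 days.

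H3.1 is the main H3 of replicating chromatin in plants. Its 5 genes summed to 65 ± 3.85 TPM in mutant 3 days, 789 ± 76 TPM in mutant control, 126 ± 11.7 TPM in WT 3 days and 709.8 ± 52.4 TPM in WT control (SD, n = 3 each). The sum was 12.1-fold lower at 3 days than at control in the mutant and 5.63-fold lower in WT. All 5 genes fell in both genotypes, with log2 changes of -5.66 to -2.75 in the mutant and -3.54 to -2.01 in WT. The response was more negative in the mutant for all 5 (differences of -2.17 to -0.75, all called, but AT5G65360 not with median-of-ratios scaling).

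The H3.1 gene AT5G10400 had 1.22, 1.37 and 2.13 TPM in mutant 3 days, 120.2, 144 and 119.8 TPM in mutant control, 10.8, 11.4 and 8.07 TPM in WT 3 days and 110.0, 140.1 and 131 TPM in WT control. The 3 libraries of mutant 3 days were the lowest of the 12, those of WT 3 days came next, and the controls overlapped. It fell, with a change of -5.66 ± 0.15 in the mutant (adjusted p = 9.31e-12) and of -3.54 ± 0.15 in WT (adjusted p = 1.03e-09). Its neighbour AT5G10390, also an H3.1 gene, had 4.63, 4.08 and 5.37 TPM in mutant 3 days, 59.7, 67.4 and 61.7 TPM in mutant control, 13.8, 12.9 and 12.9 TPM in WT 3 days and 50.7, 58.3 and 60.5 TPM in WT control. Its groups stood in the same order. The neighbour fell, with a change of -3.49 ± 0.089 in the mutant (adjusted p = 6.05e-12), less than AT5G10400.

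The most abundant H3.1 gene in all 4 groups, AT5G65360, had 47.7, 40.8 and 42.5 TPM in mutant 3 days, 272, 333 and 296 TPM in mutant control, 66.7, 65 and 55.6 TPM in WT 3 days and 242, 267 and 250.4 TPM in WT control. Mutant 3 days was the lowest group, and none of the 4 groups overlapped. Between genotypes at 3 days it differed by -0.51 ± 0.089 (adjusted p = 2.30e-04), but by 0.042 with median-of-ratios scaling, so that direction depends on the scaling. AT3G27360 and AT1G09200, the other 2 H3.1 genes, changed by -5.19 ± 0.16 and -3.80 ± 0.092 in the mutant.

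H4 forms a tetramer with H3 and has no separate variant class here, so that all 8 H4 genes are counted as replicative. They summed to 67.6 ± 4.9 TPM in mutant 3 days, 1053 ± 72.2 TPM in mutant control, 167 ± 16.5 TPM in WT 3 days and 984 ± 90.8 TPM in WT control (SD, n = 3 each). That is 15.6-fold lower at 3 days in the mutant and 5.9-fold lower in WT. All 8 fell in each genotype, with changes of -6.32 to -1.96 in the mutant and -3.99 to -0.92 in WT.

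The depth of the fall differed widely among H4 copies. AT3G46320 had 0.68, 0.64 and 0.33 TPM in mutant 3 days, 117, 132 and 117 TPM in mutant control, 5.94, 7.32 and 4.4 TPM in WT 3 days and 96.5, 115 and 110.2 TPM in WT control. Mutant 3 days was the lowest group and WT 3 days the next, with no overlap among the 4 groups. The gene changed by -6.32 ± 0.14 (adjusted p = 2.54e-12), the most negative of the 46 members, and by -3.99 ± 0.14 in WT. The most abundant H4 gene of both controls, AT5G59690, had 6.52, 5.6 and 6.69 TPM in mutant 3 days, 290.1, 340.4 and 297 TPM in mutant control, 50.4, 51.5 and 42.7 TPM in WT 3 days and 241, 299 and 283 TPM in WT control. The 3 day groups stood below the controls, which overlapped each other. The mutant response of this gene (-5.41 ± 0.1) was more negative than that of WT (-2.48 ± 0.1), with a difference of -2.93 ± 0.14 (adjusted p = 6.11e-09).

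AT1G07820 and AT1G07660 changed less in the mutant than the median H4 gene (-5.26). AT1G07820 had 30.3, 26.7 and 29.9 TPM in mutant 3 days, 109, 126 and 111 TPM in mutant control, 31.6, 36.4 and 26.9 TPM in WT 3 days and 119, 133 and 144 TPM in WT control. Its 3 day libraries of the 2 genotypes overlapped. It changed by -1.96 ± 0.11 in the mutant and -2.04 ± 0.11 in WT, and the difference of 0.079 ± 0.15 was not called (adjusted p = 0.645). Rescaled, that difference was called, at 0.70 with median-of-ratios scaling (adjusted p = 0.00117) and 0.38 with quantile normalization (adjusted p = 0.0411). AT1G07660 changed by -1.98 ± 0.11 in the mutant and -0.92 ± 0.11 in WT. The share of the pair in H4 TPM was 59.1 to 64.3% in mutant 3 days, 15.5 to 16.3% in mutant control, 31.8 to 35% in WT 3 days and 16.8 to 19% in WT control. The groups at 3 days did not overlap each other or either control in this share.

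**Figure D2:**
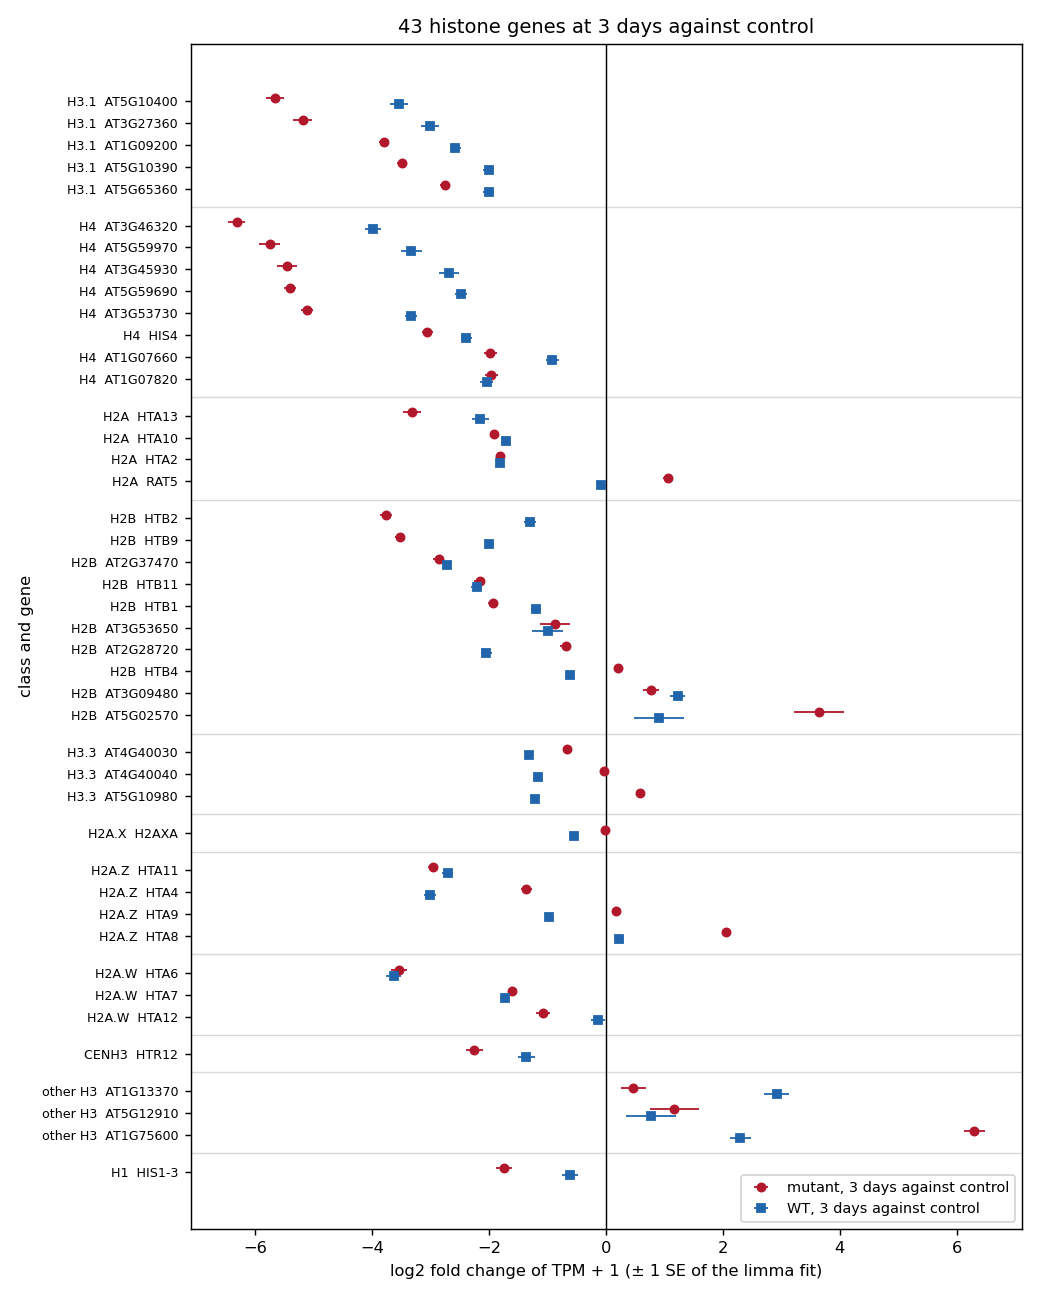
Log2 fold change of TPM + 1 at 3 days against control (horizontal axis, ± 1 standard error) of the 43 core and linker histone genes that passed the filter, by class (vertical axis), in the mutant (circles) and in WT (squares). All 5 H3.1 and all 8 H4 genes lie left of 0 in both genotypes, while AT1G75600 (6.30) lies farthest right in the mutant. HTA9 (0.17) and HTB4 (0.21) lie right of 0 in the mutant on this scale and left of it with quantile normalization.

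The 4 replicative H2A genes summed to 207 ± 23 TPM in mutant 3 days, 532 ± 36.1 TPM in mutant control, 150.5 ± 9.52 TPM in WT 3 days and 460.5 ± 36.1 TPM in WT control (SD, n = 3 each). HTA2, HTA10 and HTA13 fell in both genotypes. HTA13 fell more in the mutant (-3.32 ± 0.15) than in WT (-2.15 ± 0.15), and HTA2 changed by -1.82 ± 0.064 in the mutant and by -1.81 ± 0.064 in WT. The HTA2 responses did not differ by a call (-0.0072). Rescaled, they did, by 0.62 with median-of-ratios scaling (adjusted p = 7.48e-05) and 0.25 with quantile normalization (adjusted p = 0.0279).

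RAT5, the H2A gene also called HTA1 and known for its part in Agrobacterium transformation, went against the other 3. It had 119, 96.9 and 90.3 TPM in mutant 3 days, 46.1, 50.4 and 47.9 TPM in mutant control, 36.6, 37 and 32.8 TPM in WT 3 days and 40, 36.4 and 36.4 TPM in WT control. The 3 libraries of mutant 3 days were the highest, with no overlap with another group, while WT 3 days and WT control overlapped. It rose by 1.06 ± 0.091 in the mutant (adjusted p = 3.47e-07), and in WT its change of -0.082 ± 0.091 was not called (adjusted p = 0.421). In WT the change was called lower under both scalings, at -0.52 with median-of-ratios scaling and -0.51 with quantile normalization. The responses of the 2 genotypes differed by 1.14 ± 0.13 (adjusted p = 7.41e-06). The share of RAT5 in replicative H2A was 47.7 to 51.2% in mutant 3 days, 8.8 to 9.3% in mutant control, 23.2 to 24% in WT 3 days and 7.39 to 9.5% in WT control.

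Replicative H2B was lower at 3 days in both genotypes. The 11 genes summed to 425 ± 13.3 TPM in mutant 3 days, 1084 ± 56 TPM in mutant control, 450.4 ± 38.8 TPM in WT 3 days and 1247 ± 62.7 TPM in WT control (SD, n = 3 each). Of the 10 tested 3 rose and 7 fell in the mutant, and 1 rose and 8 fell in WT. Between the genotypes at 3 days the sum had a log2 ratio of -0.08, which turned to 0.48 with median-of-ratios scaling and 0.01 with quantile normalization.

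Within the class the genes split by how they moved in the mutant. HTB2 had 13.3, 11.9 and 15.3 TPM in mutant 3 days, 180.4, 217 and 188 TPM in mutant control, 74.5, 81 and 72.9 TPM in WT 3 days and 169, 207 and 194 TPM in WT control. Its mutant 3 day libraries were the lowest and its controls overlapped. It fell, with changes of -3.76 ± 0.1 in the mutant and -1.30 ± 0.1 in WT, a difference of -2.46 ± 0.14 (adjusted p = 2.49e-08). HTB9 had 21.4, 21.8 and 19.9 TPM in mutant 3 days, 241, 269 and 251 TPM in mutant control, 87.5, 83.7 and 71.8 TPM in WT 3 days and 327, 346 and 304 TPM in WT control. It was again lowest in mutant 3 days, with no overlap among the groups, and its responses differed by -1.53 ± 0.11 (adjusted p = 1.32e-07). HTB11 fell in the mutant (-2.16 ± 0.092) and in WT (-2.21 ± 0.092), and the difference of 0.049 ± 0.13 was not called (adjusted p = 0.743), but was with median-of-ratios scaling (0.68, adjusted p = 3.91e-04).

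HTB4, the most abundant H2B gene of the mutant at 3 days, had 268, 256 and 271 TPM in mutant 3 days, 219, 239 and 228 TPM in mutant control, 159, 152 and 139 TPM in WT 3 days and 229.8, 242 and 222 TPM in WT control. Mutant 3 days was the highest group and WT 3 days the lowest, without overlap with their controls. It rose by 0.21 ± 0.056 in the mutant (adjusted p = 0.00394), which turned to -0.14 with quantile normalization, and fell in WT (-0.62 ± 0.056, adjusted p = 7.88e-07). The difference of 0.83 ± 0.08 was called (adjusted p = 1.79e-06). The share of HTB4 in all H2B TPM was 61.3 to 63.3% in mutant 3 days, 20.9 to 21.2% in mutant control, 32.2 to 34.3% in WT 3 days and 18.3 to 19% in WT control. The share of HTB1, HTB2 and HTB9 together was 13 to 14.1% in mutant 3 days, 48.9 to 51.3% in mutant control, 42.7 to 44.1% in WT 3 days and 47.7 to 48.9% in WT control.

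HTB1 changed by -1.94 ± 0.085 in the mutant and -1.20 ± 0.085 in WT. AT2G28720 (H2B.3) fell less in the mutant (-0.69 ± 0.093) than in WT (-2.05 ± 0.093), a difference of 1.36 ± 0.13 (adjusted p = 1.98e-06). AT2G37470 (H2B.4) changed by -2.86 ± 0.093 in the mutant and -2.72 ± 0.093 in WT, a difference of -0.14 ± 0.13 (adjusted p = 0.343) that turned to 0.43 with median-of-ratios scaling and 0.79 with quantile normalization, both called. Some weakly expressed H2B genes rose. AT5G02570 (H2B.9), a neighbour of the H2A.W gene HTA12, had 9.19, 14 and 11.9 TPM in mutant 3 days, 0, 0 and 0 TPM in mutant control, 1.94, 3.15 and 0 TPM in WT 3 days and 0.82, 0 and 0 TPM in WT control. Mutant control is listed at 0 throughout, which leaves no fold to give, and the gene was called higher in mutant 3 days (adjusted p = 6.13e-06). Its change in WT was not called (adjusted p = 0.0675) but was without WT 3 days replicate 3 (adjusted p = 3.66e-04) and when WT control replicate 1 was left out (adjusted p = 0.0335). AT3G09480 (H2B.5) had 7.72, 7.57 and 5.35 TPM in mutant 3 days, 3.55, 3.22 and 3.98 TPM in mutant control, 14.8, 16.2 and 13.1 TPM in WT 3 days and 5.65, 6.12 and 5.27 TPM in WT control. WT 3 days was the highest group, and mutant 3 days overlapped WT control. It rose in both genotypes, by 0.77 ± 0.13 in the mutant and 1.23 ± 0.13 in WT. AT3G53650 (H2B.8) fell in both genotypes (-0.87 ± 0.26 in the mutant), to 8.45, 2.96 and 3.59 TPM in mutant 3 days, against 8.27, 9.83 and 9.36 TPM in mutant control, but with quantile normalization its fall in the mutant was no longer called (-0.33, adjusted p = 0.167).

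H3.3 differs from H3.1 at a few residues and replaces it where nucleosomes turn over. In WT all 3 H3.3 genes fell at 3 days. In the mutant 1 rose, 1 fell and 1 was not called. The sum was 1081 ± 59.8 TPM in mutant 3 days, 1114 ± 18.9 TPM in mutant control, 388 ± 21.2 TPM in WT 3 days and 914 ± 47 TPM in WT control (SD, n = 3 each). The sum was 2.78-fold higher in mutant 3 days than in WT 3 days, with no overlap of libraries.

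AT5G10980 had 409, 413 and 437 TPM in mutant 3 days, 273, 292 and 270.5 TPM in mutant control, 107, 106 and 98.5 TPM in WT 3 days and 221, 255 and 246 TPM in WT control. Mutant 3 days was the highest group and WT 3 days the lowest, with no overlap among the 4 groups. The gene rose by 0.59 ± 0.059 in the mutant (adjusted p = 1.44e-06) and fell in WT (-1.21 ± 0.059, adjusted p = 3.09e-09). The responses differed by 1.79 ± 0.083 (adjusted p = 4.71e-09).

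Its 2 relatives on chromosome 4, which are neighbours, differed from it in the mutant. AT4G40040 had 336, 403 and 385 TPM in mutant 3 days, 373, 389 and 387 TPM in mutant control, 162, 161 and 147 TPM in WT 3 days and 341, 361 and 355 TPM in WT control. Its mutant 3 day libraries overlapped both controls and its WT 3 day libraries were the lowest of all. The change in the mutant was -0.035 ± 0.065 (adjusted p = 0.623), of uncertain sign since it was 0.16 with median-of-ratios scaling (adjusted p = 0.0767) and -0.21 with quantile normalization (adjusted p = 0.0122), and in WT it was -1.17 ± 0.065. AT4G40030 had 268, 295 and 298 TPM in mutant 3 days, 455, 455 and 448 TPM in mutant control, 137, 129 and 119 TPM in WT 3 days and 297, 324 and 342 TPM in WT control. It fell in both genotypes, with changes of -0.66 ± 0.064 in the mutant and -1.32 ± 0.064 in WT, and its WT 3 day libraries were again the lowest. The fall was smaller in the mutant by 0.66 ± 0.091 (adjusted p = 3.97e-05).

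Of the summed H3.1 and H3.3 TPM of the same library, H3.3 held 93.7 to 94.8% in mutant 3 days, 56.5 to 59.9% in mutant control, 74.8 to 76.4% in WT 3 days and 55.5 to 56.9% in WT control. A single factor for each library leaves this share as it is, and it was not recomputed with quantile normalization, which can change it. The share was higher at 3 days than at control in each genotype without overlap, and mutant 3 days lay above WT 3 days. These shares are given as a description with no test.

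**Figure D3:**
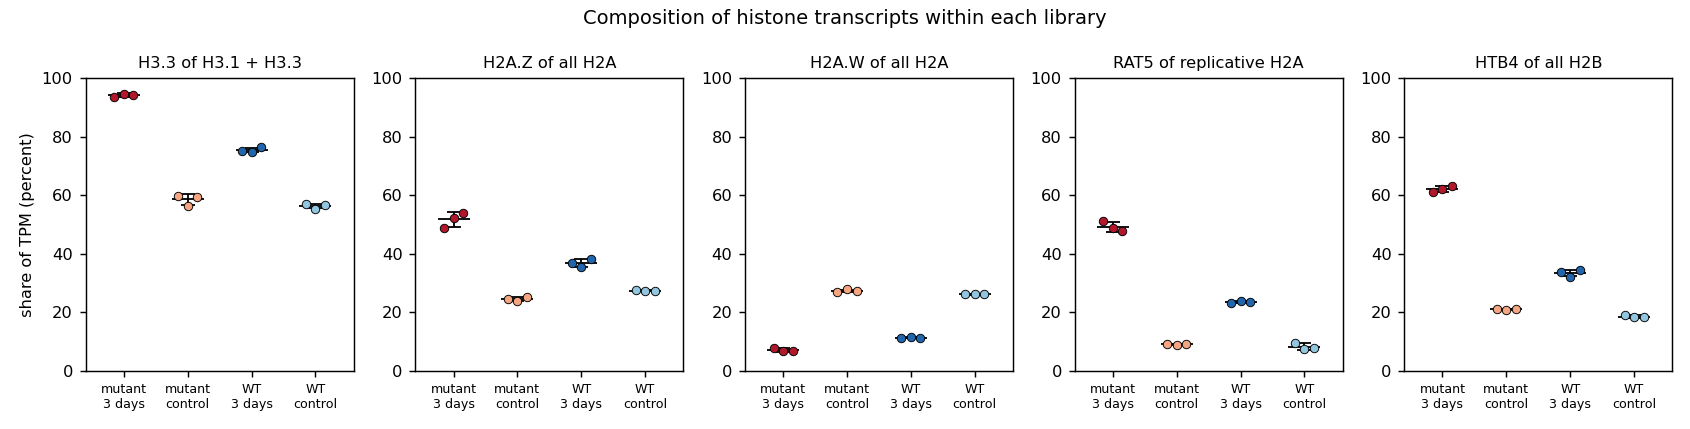
Share of TPM (vertical axis, percent, 0 to 100) of H3.3 among H3.1 and H3.3, of H2A.Z and H2A.W among all H2A rows found by the rule, of RAT5 among replicative H2A and of HTB4 among H2B, in every library of the 4 groups (points) with the mean and SD of 3 libraries (lines). The H2A rows leave out AT1G54690. All but H2A.W were highest in mutant 3 days, at 93.7 to 94.8% for H3.3 and 61.3 to 63.3% for HTB4, and H2A.W was lowest there, at 6.69 to 7.69%.

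Of the 4 H2A.Z genes, HTA8 and HTA9 rose in the mutant while HTA11 and HTA4 fell. The sum was 382 ± 11.3 TPM in mutant 3 days, 324 ± 15 TPM in mutant control, 154 ± 4.35 TPM in WT 3 days and 328 ± 17 TPM in WT control (SD, n = 3 each). It was 2.48-fold higher in mutant 3 days than in WT 3 days. As a share of all H2A rows found by the rule, H2A.Z held 48.9 to 54% in mutant 3 days, 24 to 25.3% in mutant control, 35.6 to 38.3% in WT 3 days and 27.2 to 27.7% in WT control. These rows leave out AT1G54690, an H2A.X gene with means of 17.7 TPM in mutant 3 days, 93.6 TPM in mutant control, 73.1 TPM in WT 3 days and 74.8 TPM in WT control. With that gene counted, the shares would be lower.

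HTA8 had 127, 129 and 133 TPM in mutant 3 days, 29.1, 31.5 and 30.4 TPM in mutant control, 44.2, 36.5 and 34.4 TPM in WT 3 days and 30, 34.2 and 32.7 TPM in WT control. The 3 libraries of mutant 3 days were far above the rest. HTA8 rose by 2.06 ± 0.081 in the mutant (adjusted p = 2.41e-10), and the response exceeded that of WT by 1.82 ± 0.11 (adjusted p = 5.16e-08). In WT it rose by 0.23 ± 0.081 (adjusted p = 0.0195), a call lost without WT 3 days replicate 1 (0.13, adjusted p = 0.071) or without WT control replicate 1 (0.18, adjusted p = 0.0801), and the change turned to -0.21 with median-of-ratios scaling and -0.18 with quantile normalization.

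HTA9, the most abundant H2A.Z gene of all 4 groups, had 236, 242 and 254 TPM in mutant 3 days, 208, 226 and 218 TPM in mutant control, 103, 100.3 and 106 TPM in WT 3 days and 193, 205 and 212 TPM in WT control. WT 3 days stood below the other 3 groups and mutant 3 days above them, while the controls overlapped. It rose by 0.17 ± 0.049 in the mutant (adjusted p = 0.00687), a change of -0.19 with quantile normalization, and fell in WT (-0.97 ± 0.049, adjusted p = 3.91e-09). HTA9 and HTA11 are the genes whose loss, together, impairs temperature sensing in Arabidopsis.

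HTA11 had 9.46, 8.85 and 7.95 TPM in mutant 3 days, 69.8, 78.2 and 76 TPM in mutant control, 10.9, 13.2 and 12.6 TPM in WT 3 days and 80.4, 96.4 and 80.3 TPM in WT control. Both 3 day groups were below both controls. It fell in both genotypes, with changes of -2.96 ± 0.091 in the mutant and -2.71 ± 0.091 in WT, and the difference of -0.25 ± 0.13 was not called (adjusted p = 0.102). It was called without WT 3 days replicate 1 (-0.32, adjusted p = 0.038) and also when WT control replicate 2 was left out (-0.33, adjusted p = 0.0261). It had the opposite sign and a call under median-of-ratios scaling (0.35) and quantile normalization (0.48). HTA4 was listed at 0 in all 6 libraries of 3 days, and had 1.49, 1.69 and 1.5 TPM in mutant control and 6.04, 7.01 and 8.25 TPM in WT control. It was called lower at 3 days in both genotypes, and mutant control was below WT control (-1.65 ± 0.1, adjusted p = 4.53e-07).

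H2A.X is the variant that is phosphorylated at DNA breaks. H2AXA had 98, 98.5 and 97.6 TPM in mutant 3 days, 96.1, 105 and 98.4 TPM in mutant control, 65, 68.9 and 62.8 TPM in WT 3 days and 95, 95.2 and 97.6 TPM in WT control. WT 3 days alone lay below the other groups, which overlapped. The gene fell in WT (-0.54 ± 0.044, adjusted p = 2.54e-07), whereas its change in the mutant was -0.024 ± 0.044 (adjusted p = 0.614). Rescaled, the change in the mutant was called in opposite directions, at 0.16 with median-of-ratios scaling (adjusted p = 0.00799) and -0.39 with quantile normalization (adjusted p = 5.51e-06). The other H2A.X gene, GAMMA-H2AX (AT1G54690), lies outside the rule. It had 17.2, 15.2 and 20.6 TPM in mutant 3 days, 96, 95.6 and 89.2 TPM in mutant control, 78.1, 74.5 and 66.9 TPM in WT 3 days and 73, 74.2 and 77.2 TPM in WT control. Mutant 3 days lay far below the other groups, and the gene fell in the mutant (-2.35 ± 0.09) and was not called in WT (-0.034 ± 0.09, adjusted p = 0.735). In WT AT1G54690 was called lower under both rescalings, at -0.48 with median-of-ratios scaling (adjusted p = 6.72e-04) and -0.40 with quantile normalization (adjusted p = 6.64e-04).

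H2A.W was lower at 3 days in both genotypes. The 3 genes summed to 52.2 ± 5.53 TPM in mutant 3 days, 359.9 ± 28.3 TPM in mutant control, 47.1 ± 2.07 TPM in WT 3 days and 313 ± 19.9 TPM in WT control (SD, n = 3 each). Their share of all H2A rows found by the rule, without AT1G54690, was 6.69 to 7.69% in mutant 3 days, 27 to 27.8% in mutant control, 11.2 to 11.4% in WT 3 days and 26.1 to 26.2% in WT control. HTA6 had 28.9, 17.9 and 21.1 TPM in mutant 3 days, 251, 297 and 262 TPM in mutant control, 17.1, 18 and 16.8 TPM in WT 3 days and 212, 236 and 229 TPM in WT control. Its 3 day groups overlapped, and it fell, with changes of -3.54 ± 0.13 in the mutant and -3.63 ± 0.13 in WT. HTA6 was higher in mutant 3 days than in WT 3 days by 0.34 ± 0.13 (adjusted p = 0.0297). That call was lost without mutant 3 days replicate 1 (0.16, adjusted p = 0.0975), WT 3 days replicate 1 (adjusted p = 0.0655) or WT 3 days replicate 3 (adjusted p = 0.0748). Rescaled, it was 0.87 with median-of-ratios scaling (adjusted p = 3.49e-05) and 0.75 with quantile normalization (adjusted p = 3.64e-05). The difference of responses of HTA6 (0.092) was not called, but was under these rescalings (0.71 and 0.56). HTA7 fell, with changes of -1.60 ± 0.066 in the mutant and -1.73 ± 0.066 in WT. Its difference of responses (0.13, adjusted p = 0.211) was not called. Rescaled it was, at 0.75 with median-of-ratios scaling (adjusted p = 2.70e-05) and 0.48 with quantile normalization (adjusted p = 0.00102). The weak HTA12 fell in the mutant (-1.07 ± 0.12) and was not called in WT (-0.14 ± 0.12, adjusted p = 0.283). In WT it was called lower under both rescalings, at -0.53 with median-of-ratios scaling (adjusted p = 9.91e-04) and -0.53 with quantile normalization (adjusted p = 7.15e-04), and the difference of responses (-0.93 ± 0.17) turned to 0.10 with quantile normalization.

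HTR12, the gene of the centromeric histone CENH3, had 1.14, 0.49 and 0.71 TPM in mutant 3 days, 6.31, 8.09 and 7.75 TPM in mutant control, 2.11, 2.42 and 2.47 TPM in WT 3 days and 6.82, 8.56 and 7.3 TPM in WT control. Mutant 3 days was the lowest group and WT 3 days came next, while the controls overlapped. The change was -2.25 ± 0.14 in the mutant and -1.36 ± 0.14 in WT, with a difference of -0.89 ± 0.2 (adjusted p = 0.00151), which turned to 0.10 with quantile normalization.

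The 4 H3-like genes outside the H3.1 and H3.3 classes were at 2.65 TPM or less in every control library, and AT1G75600 rose in both genotypes. AT1G75600 (H3-like 3) had 112, 90.7 and 104 TPM in mutant 3 days, 0, 0.56 and 0.42 TPM in mutant control, 4.56, 6.32 and 3.86 TPM in WT 3 days and 0.27, 0.13 and 0.15 TPM in WT control. The 3 libraries of mutant 3 days stood far above all others, and those of WT 3 days above both controls. It rose by 6.30 ± 0.18 in the mutant (adjusted p = 1.46e-11) and by 2.30 ± 0.18 in WT (adjusted p = 1.95e-07), a difference of 4.00 ± 0.25 (adjusted p = 5.43e-08). In mutant 3 days it made up 7.15 to 9.31% of the TPM of all H3 rows found by the rule, against 0.786 to 1.15% in WT 3 days.

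AT1G13370 (H3-like 1) had 2.38, 3.34 and 3.89 TPM in mutant 3 days, 2.45, 1.14 and 2.65 TPM in mutant control, 8.44, 10.4 and 7.09 TPM in WT 3 days and 0.11, 0.22 and 0.47 TPM in WT control. WT 3 days was the highest group, and the mutant was above WT at control. The gene rose in WT (2.92 ± 0.22, adjusted p = 1.34e-07) and was not called in the mutant (0.47 ± 0.22, adjusted p = 0.0627). In the mutant it was called higher under both rescalings, at 0.62 with median-of-ratios scaling (adjusted p = 0.0209) and 1.03 with quantile normalization (adjusted p = 5.70e-04), and also without mutant 3 days replicate 1 (0.62, adjusted p = 0.029) or mutant control replicate 3 (0.61, adjusted p = 0.0325). The responses differed by -2.45 ± 0.31 (adjusted p = 1.85e-05). HTR11, a further H3-like gene that lies outside the rule, rose in the mutant (1.26 ± 0.2) and in WT (1.79 ± 0.2). AT1G75610, also outside the rule, did not pass the filter, with 3.04, 2.74 and 0.38 TPM in WT 3 days and at most 0.65 TPM in the other groups.

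AT5G12910 (H3-like 4) had 3.6, 1.48 and 0 TPM in mutant 3 days, 0, 0 and 0 TPM in mutant control, 0.43, 1.35 and 0.48 TPM in WT 3 days and 0, 0 and 0 TPM in WT control. Both controls were listed at 0, which leaves no fold to give. It was called higher in the mutant (adjusted p = 0.0205), a call lost without mutant 3 days replicate 1 (adjusted p = 0.0846) or replicate 2 (adjusted p = 0.056). MGH3, an H3 known from sperm cells, did not pass the filter, with 0.14, 0.13 and 0.54 TPM in mutant 3 days and 0, 0 and 0.12 TPM in WT 3 days and listed at 0 in both controls. The H2B gene AT1G08170 did not pass it either, at 0.09 TPM or less in every library. Of 3 pollen markers, GEX1 rose in the mutant (2.61 ± 0.14) and in WT (1.77 ± 0.14), DUO1 was at 0.22 TPM or less and LAT52 at 0.15 TPM or less in every library. The summed pollen markers were 6.58 to 9.59 TPM in mutant 3 days, 0.25 to 0.72 TPM in mutant control, 3.11 to 3.8 TPM in WT 3 days and 0.19 to 0.33 TPM in WT control, and their part in these results was not tested.

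**Figure D4:**
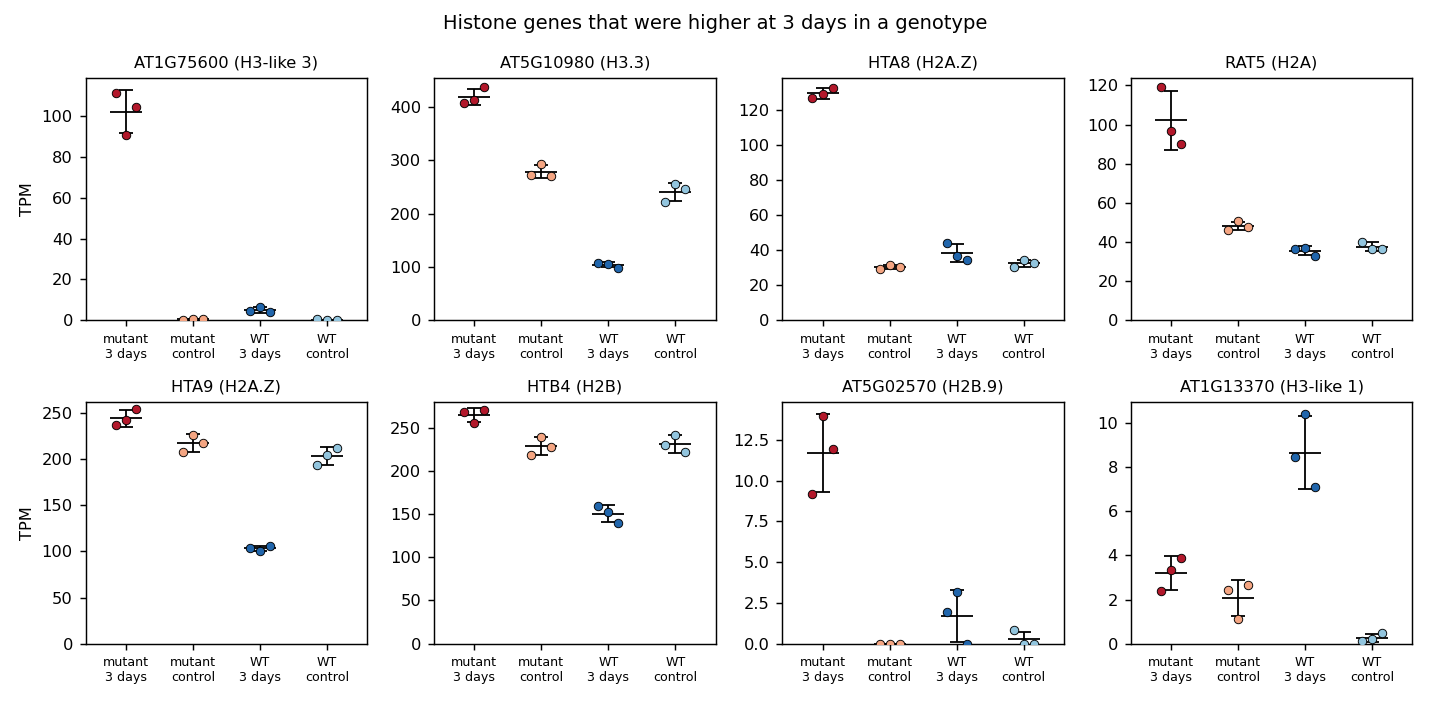
TPM (vertical axes, each starting at 0) in every library of the 4 groups (points), with the mean and SD of 3 libraries (lines), for 8 histone genes that were higher at 3 days in a genotype. AT1G75600, AT5G10980, HTA8, RAT5 and AT5G02570 were highest in mutant 3 days, and AT1G13370 in WT 3 days. HTA9 and HTB4 were higher in mutant 3 days than in mutant control on this scale, by 0.17 and 0.21 on the log2 scale, but lower with quantile normalization.

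HIS1-3, a linker histone known as inducible by drought, had the most negative difference between genotypes at 3 days among the members. It had 0, 0 and 0.14 TPM in mutant 3 days, 2.49, 2.69 and 2.39 TPM in mutant control, 8.04, 5 and 5.98 TPM in WT 3 days and 8.82, 9.99 and 11.4 TPM in WT control. The mutant was below WT at both stages, with differences of -2.79 ± 0.14 at 3 days (adjusted p = 4.57e-09) and -1.65 ± 0.14 at control (adjusted p = 4.26e-06). It fell at 3 days in the mutant (-1.75 ± 0.14) and in WT (-0.61 ± 0.14). The main linker histones H1.1 (AT1G06760) and H1.2 (AT2G30620) lie outside the rule. H1.1 had 37.1 ± 3.48 TPM in mutant 3 days, 253 ± 8.9 TPM in mutant control, 52.1 ± 5.38 TPM in WT 3 days and 233 ± 10.6 TPM in WT control, and H1.2 had 7.15 ± 0.14 TPM in mutant 3 days, 151 ± 1.53 TPM in mutant control, 29.1 ± 1.3 TPM in WT 3 days and 152 ± 5.71 TPM in WT control (SD, n = 3 each). Both fell in both genotypes, H1.2 with changes of -4.22 ± 0.043 in the mutant and -2.34 ± 0.043 in WT.

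At control, 2 of the 3 H3.3 genes were among those higher in the mutant, and 5 of the 10 H2B genes tested were among those lower. Set against WT control, mutant control had 7 of the 46 members tested higher and 7 lower, where 30.3% of all genes were higher and 19.2% lower. The higher ones were the H3.3 genes AT4G40030 (0.50 ± 0.064) and AT5G10980 (0.21 ± 0.059), RAT5 (0.35 ± 0.091), HTA10 (0.22 ± 0.067), AT5G65360 (0.24 ± 0.089), AT1G13370 (1.25 ± 0.22) and AT5G19490 (0.62 ± 0.17). Of these AT5G10980, HTA10 and AT5G65360 were not called with median-of-ratios scaling. HTA10 was not called without mutant control replicate 2 (0.19) or WT control replicate 1 (0.16), and AT5G65360 was lost without mutant control replicate 2 (0.16), mutant control replicate 3, WT control replicate 1, WT control replicate 3, mutant 3 days replicate 3 or WT 3 days replicate 2. The lower ones were 5 of the 10 H2B genes tested, HTA4 and HIS1-3. Among the H2B genes, HTB9 had a difference of -0.36 ± 0.077 and AT2G28720 (H2B.3) one of -0.78 ± 0.093.

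At 3 days 15 members were higher and 24 lower in the mutant than in WT, where 24.1% of all genes were higher and 58.7% lower. With median-of-ratios scaling the counts were 19 and 18, and with quantile normalization 20 and 17. By kind, 4 of 27 replicative genes were higher and 19 lower, against 9 and 4 of 15 variants. With median-of-ratios scaling 8 of the replicative genes were higher and 14 lower, against 9 and 3 of the variants, and with quantile normalization 6 and 16, against 11 and 0 of the variants. All 15 higher members were so under all 3 scalings, among them the 3 H3.3 genes, HTA8, HTA9, H2AXA, RAT5, HTB4, AT2G28720 and AT1G75600. Among the lower ones HTB2 (-2.41 ± 0.1), AT5G59690 (-2.76 ± 0.1) and HIS1-3 were lower under all 3. HTR12, HTB1, AT1G13370, HIS4, AT2G37470, AT3G09480, AT3G53650, HTA11, HTA12 and AT5G65360, all lower as first given, lost their call or turned under a scaling.

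The response itself differed between genotypes for 35 of the 46 members, where 76.9% of all genes differed. It was more negative in the mutant for 22 and more positive for 13, where 56.3% of all genes were more negative and 20.6% more positive. The members had a median difference of -0.22, where all genes had one of -0.55. With median-of-ratios scaling 17 were more negative and 22 more positive, and with quantile normalization 16 and 21. Of the 35 genes 27 kept their direction and call under both scalings. Replicative genes were more negative in 17 and more positive in 4 of 27, and variants more negative in 3 and more positive in 8 of 15. With median-of-ratios scaling replicative genes were more negative in 13 and more positive in 9 (median -0.12, against -0.75 as first given), and variants in 3 and 11. With quantile normalization replicative genes were more negative in 15 and more positive in 8 (median -0.49), and variants in 1 and 11.

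Of the 4 members that are not histones 3 were tested. In the mutant 2 of them rose, where 39.4% of all genes rose, and in WT all 3, where 54.9% of all genes rose. With either rescaling 1 of the 3 rose in WT. AT5G50930, annotated as the homologue of MHF1, a histone-fold protein of DNA repair, had 33, 36.2 and 39.6 TPM in mutant 3 days, 2.27, 1.53 and 3.57 TPM in mutant control, 15.8, 15.8 and 16.6 TPM in WT 3 days and 2.99, 2.86 and 2.94 TPM in WT control. Both 3 day groups lay above both controls, and it rose by 3.47 ± 0.16 in the mutant and 2.12 ± 0.16 in WT. AT3G07565, described as an H2A deubiquitinase, rose by 0.56 ± 0.07 in the mutant and 0.45 ± 0.07 in WT, where the change was not called under either rescaling. AT5G19490, annotated as a Dr1-associated corepressor, changed by -0.32 ± 0.17 in the mutant (adjusted p = 0.0964) and 0.53 ± 0.17 in WT (adjusted p = 0.0116), which turned to -0.029 with quantile normalization, and a call lost without WT 3 days replicate 3 (0.39, adjusted p = 0.0516). LEC1, an NF-Y subunit of embryos, did not pass the filter, with 0.9, 1.51 and 0.87 TPM in mutant 3 days and at most 0.15 TPM elsewhere.

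Genes that place or accompany histones did not all follow them. Over all genes tested, 39.4% rose and 46.5% fell in the mutant, and 54.9% rose and 26.4% fell in WT. Of 12 chaperones of H3 and H4, 7 rose and 4 fell in the mutant (median 0.25), and 8 rose and 1 fell in WT (median 0.69), where 54.9% of all genes rose. With either rescaling 7 rose and 3 fell in the mutant, and 6 rose and 4 fell in WT, with WT medians of 0.33 with median-of-ratios scaling and 0.31 with quantile normalization. FAS1 and FAS2, subunits of CAF-1, fell in the mutant (-1.78 ± 0.1 and -1.79 ± 0.098), while in WT they changed by 0.0085 ± 0.1 and 0.46 ± 0.098. Under the rescalings FAS1 was called lower in WT (-0.38 and -0.37) and FAS2 was not called there (0.063 and 0.11). MSI1, also a subunit of CAF-1, rose in both (1.34 ± 0.057 in the mutant and 1.14 ± 0.057 in WT). ATRX, which deposits H3.3, rose in the mutant (0.67 ± 0.052) and in WT (1.03 ± 0.052). Of 7 chaperones of H2A and H2B, 6 rose and 1 fell in the mutant, and 6 rose and none fell in WT, where 1 fell with either rescaling. Among them SPT16, a subunit of FACT, rose by 2.01 ± 0.052 in the mutant and 1.05 ± 0.052 in WT, and NRP1 rose by 3.44 ± 0.05 in WT. NRP1 rose in the mutant too, with a mean of 389.9 TPM in mutant 3 days and 180.9 TPM in mutant control.

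For H2A.Z loading, 1 of 5 SWR1 genes rose and 3 fell in the mutant, where 39.4% of all genes rose and 46.5% fell. In WT 4 rose and 1 fell, where 54.9% of all genes rose and 26.4% fell. PIE1, the ATPase of the complex, rose in both (1.07 ± 0.061 in the mutant and 1.26 ± 0.061 in WT), and ARP6 fell in both (-2.16 ± 0.069 in the mutant and -0.32 ± 0.069 in WT). SWC6 changed by -1.60 ± 0.1 in the mutant and 0.24 ± 0.1 in WT, which turned to -0.17 with median-of-ratios scaling and -0.16 with quantile normalization. With either rescaling 2 of the 5 rose in each genotype and 2 fell in WT. DDM1, the remodeller that loads H2A.W, was not called in the mutant (-0.034 ± 0.09, adjusted p = 0.734), where with quantile normalization it was called higher (0.25, adjusted p = 0.0339), and rose in WT (1.18 ± 0.09). KNL2, which acts in CENH3 loading, changed by -0.68 ± 0.13 in the mutant and 0.44 ± 0.13 in WT, a change not called in the mutant with quantile normalization (-0.12) nor in WT with either rescaling (0.099 and 0.015).

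S phase and mitosis genes parted in WT. Of 16 S phase genes 5 rose and 7 fell in the mutant (median -0.064), where 39.4% of all genes rose and 46.5% fell. In WT 15 rose and 1 fell (median 1.18), where 54.9% of all genes rose and 26.4% fell. MCM5, a subunit of the replicative helicase, had 174 ± 1.15 TPM in mutant 3 days, 21.1 ± 1 TPM in mutant control, 1099 ± 152 TPM in WT 3 days and 16.7 ± 0.576 TPM in WT control. It stood apart from the other MCM genes listed. Their means were 12.3 to 18 TPM in mutant 3 days and 11.4 to 22.4 TPM in mutant control. In WT they were 28.9 to 50.1 TPM at 3 days and 10.1 to 19.9 TPM at control. TSO2, a subunit of the ribonucleotide reductase, was the S phase gene that fell in WT and had 3.26 ± 0.813 TPM in mutant 3 days, 91.9 ± 2.68 TPM in mutant control, 33.2 ± 2.13 TPM in WT 3 days and 55.8 ± 3.42 TPM in WT control (SD, n = 3 each). With median-of-ratios scaling 8 rose and 6 fell in the mutant, and 13 rose and 1 fell in WT. All 7 mitosis genes fell in both genotypes, with a median of -2.32 in the mutant and -1.47 in WT. The B-type cyclin CYCB1;2 fell, with changes of -3.75 ± 0.084 in the mutant and -2.75 ± 0.084 in WT.

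**Figure D5:**
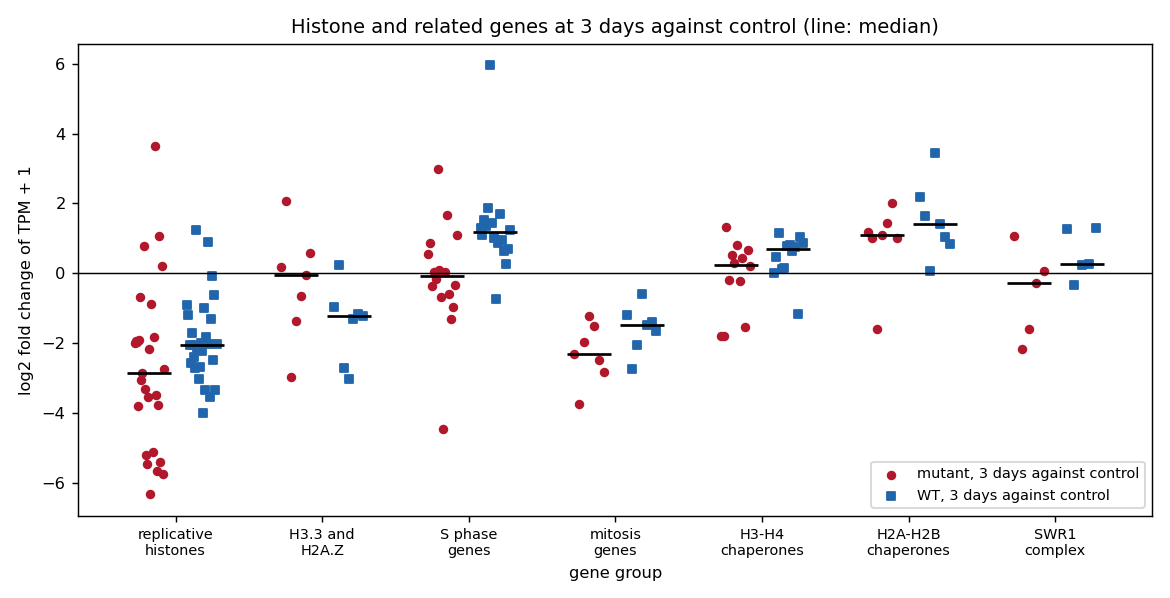
Log2 fold change of TPM + 1 at 3 days against control (vertical axis) of single genes (points) in 7 groups (horizontal axis), in the mutant (circles) and in WT (squares), with the median of each group (lines). Replicative histones and mitosis genes had negative medians in both genotypes (-2.86 and -2.32 in the mutant, -2.04 and -1.47 in WT), while the S phase genes had a median of 1.18 in WT and of -0.064 in the mutant, a sign that turned with median-of-ratios scaling (0.12) and quantile normalization (0.091).

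Markers of tissues differed in direction. For comparison, 39.4% of all genes rose and 46.5% fell in the mutant, and 54.9% rose and 26.4% fell in WT. All 5 root markers fell in both genotypes, with a summed level of 4.32 to 5.48 TPM in mutant 3 days, 83.2 to 115 TPM in mutant control, 39.4 to 49 TPM in WT 3 days and 118 to 138 TPM in WT control. EXPA7, a gene of root hairs, was listed at 0 throughout mutant 3 days, and none of the 5 was at 0 in another group. All 6 leaf photosynthesis markers, which mark the labelled seedling tissue, were present in every library and fell in both genotypes, with a sum of 2925 to 3950.5 TPM in mutant 3 days, 44267 to 46195 TPM in mutant control, 5770.1 to 7335 TPM in WT 3 days and 48516 to 52027 TPM in WT control. Of the 5 shoot meristem markers tested 1 rose and 4 fell in the mutant, and 3 rose in WT, where 1 rose with either rescaling. With quantile normalization 2 of them fell in the mutant and 1 in WT. The sum of all 7 was 7.9 to 9.84 TPM in mutant 3 days, 19.9 to 22.8 TPM in mutant control, 19.4 to 20.2 TPM in WT 3 days and 12.8 to 13.9 TPM in WT control. CLV3 was listed at 0 in both 3 day groups and WUS in WT control. Of 5 seed markers 2, CRA1 and OLEO2, passed the filter and rose in the mutant, with no call in WT. CRA1 reached 1 TPM in mutant 3 days alone, and OLEO2 in mutant 3 days replicates 1 and 2 and mutant control replicate 1. Their rise is thus tied to the filter and is no separate sign of seed tissue. The seed sum was 4.79 to 6.95 TPM in mutant 3 days, 0.46 to 1.92 TPM in mutant control, 0.47 to 1.31 TPM in WT 3 days and 0.4 to 0.43 TPM in WT control. CRU3, OLEO1 and SESA4 were at 0.31 TPM or less in every library, with CRU3 listed at 0 in both controls and SESA4 in WT 3 days. The part of these tissues in the histone results was not tested.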

How the data were processed

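Transcripts of 12 libraries of Arabidopsis thaliana seedlings were measured, 3 in each of 4 groups. The authors deposited 1 table of TPM values (length-corrected transcript shares of a library) for 37825 genes, and each library summed to 999986.2 to 999995.5. RSEM and TAIR10 are named in the submitters' processing notes, while the sources used here name neither aligner nor annotation release. No read counts were used, so the depth and the precision it gives are unknown. Nothing states that replicates were grown separately, and p-values then reflect only the spread among these libraries, which may be technical.

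Genes with at least 1 TPM in at least 3 libraries (22462) were tested as log2(TPM + 1) with limma 3.58.1 in R 4.3.3, with 1 mean per group, an intensity trend and Benjamini-Hochberg adjustment over all 22462 genes, and called at an adjusted p under 0.05. The fit was tested on simulated data. Class sums and shares carry no test. Members with a group mean of at least 5 TPM (44) are described, and of other gene lists at most the 2 called genes with the largest change in each direction of a comparison are named. Members and lists were chosen with earlier results of these data known. Symbols came from RefSeq (TAIR10.1), in which all 49 members were found and 22 had one. Alternatives were other pseudocounts, filters and scalings, fits on fewer groups, a replicate block and leaving out each library.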

Additional observations from a re-analysis of the deposited data

Results flagged for a closer look

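The change from control to 3 days differed between the mutant and WT for 35 of the 46 members tested, where 76.9% of all genes differed, by the test of the difference itself. It is given here as the log2 response of the mutant minus that of WT.

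Among H3.1 and H4, the response was more negative in the mutant by a difference of -1.06 for AT1G07660, -1.23 for AT1G09200, -0.67 for HIS4, -2.17 for AT3G27360, -2.78 for AT3G45930, -2.32 for AT3G46320, -1.78 for AT3G53730, -1.48 for AT5G10390, -2.12 for AT5G10400, -2.93 for AT5G59690, -2.42 for AT5G59970 and -0.75 for AT5G65360. Among replicative H2A and H2B, the response was more negative in the mutant by a difference of -0.75 for HTB1, -0.46 for AT3G09480, -1.17 for HTA13, -1.53 for HTB9 and -2.46 for HTB2. Among H3.3, H2A.Z, H2A.X, H2A.W and CENH3, the response was more negative in the mutant by a difference of -0.89 for HTR12 and -0.93 for HTA12. Among H3-like genes, H1 and members that are not histones, the response was more negative in the mutant by a difference of -2.45 for AT1G13370, -1.14 for HIS1-3 and -0.85 for AT5G19490.

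Among replicative H2A and H2B, the response was more positive in the mutant, with a difference of 1.36 for AT2G28720, 2.73 for AT5G02570, 1.14 for RAT5 and 0.83 for HTB4. Among H3.3, H2A.Z, H2A.X, H2A.W and CENH3, the response was more positive in the mutant, with a difference of 0.52 for H2AXA, 1.14 for HTA9, 1.82 for HTA8, 1.65 for HTA4, 0.66 for AT4G40030, 1.13 for AT4G40040 and 1.79 for AT5G10980. Among H3-like genes, H1 and members that are not histones, the response was more positive in the mutant, with a difference of 4.00 for AT1G75600 and 1.35 for AT5G50930.

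The differences of HTR12, HTB1, HIS1-3, HIS4, AT3G09480, HTA12, AT5G19490 and AT5G65360 lost their call or turned under a scaling. That of AT3G09480 also lost its call without mutant 3 days replicate 3, mutant control replicate 1 or 3, WT 3 days replicate 1 or 2, or WT control replicate 1 or 3 (adjusted p = 0.0556 to 0.0862). For HTA4 and AT5G02570 a group listed at 0 enters the difference, whose size then depends on the pseudocount.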

How the results depend on the processing

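The falls of H3.1 and H4 and the rise of AT1G75600, AT5G10980, HTA8 and RAT5 in the mutant kept direction and call under every alternative run. Of the 42 members called in the mutant 39 kept their call and direction under both scalings and 41 with each library left out, of 42 in WT 39 and 40, of 39 between the genotypes at 3 days 29 and 36, of 14 at control 11 and 12, and of 35 for the difference of responses 27 and 34. The count of members higher in WT 3 days than in WT control moved to 4 with each of the scalings. Members higher in mutant control than in WT control moved to 4 with median-of-ratios scaling. Members with a more positive response in the mutant moved to 22 with median-of-ratios scaling and 21 with quantile normalization. In that order, all genes higher in mutant 3 days than in WT 3 days moved to 8612 and 9050 and genes with a more positive response in the mutant to 8258 and 8319. With quantile normalization 8468 genes were lower in mutant 3 days than in WT 3 days and 7800 had a more negative response. These counts were 5403, 4620, 13185 and 12657 genes as first given. The scalings shift the median of all genes, as given with the results; the cause was not tested.

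With median-of-ratios scaling, the sign turned for mutant 3 days against mutant control to 0.16 for H2AXA and 0.16 for AT4G40040. With median-of-ratios scaling, the sign turned for WT 3 days against WT control to -0.21 for HTA8. With median-of-ratios scaling, the sign turned for mutant 3 days against WT 3 days to 0.42 for AT1G07820, 0.36 for HTB11, 0.069 for HTA11, 0.078 for AT5G19490 and 0.042 for AT5G65360. With median-of-ratios scaling, the sign turned for the difference of the 3 day response (mutant minus WT) to 0.44 for HTA10, 0.43 for AT2G37470, 0.12 for AT3G09480, 0.35 for HTA11 and 0.62 for HTA2. With quantile normalization, the sign turned for mutant 3 days against mutant control to -0.19 for HTA9, 0.19 for AT5G19490 and -0.14 for HTB4. With quantile normalization, the sign turned for WT 3 days against WT control to -0.18 for HTA8 and -0.029 for AT5G19490. With quantile normalization, the sign turned for mutant 3 days against WT 3 days to 0.0055 for HTR12, 0.15 for AT1G07820, 0.29 for AT2G37470, 0.08 for AT3G53650, 0.27 for HTA11 and 0.75 for AT5G19490. With quantile normalization, the sign turned for the difference of the 3 day response (mutant minus WT) to 0.10 for HTR12, 0.79 for AT2G37470, 0.32 for AT3G09480, 0.48 for HTA11, 0.25 for HTA2, 0.10 for HTA12 and 0.22 for AT5G19490. With a pseudocount of 5, the sign turned for the difference of the 3 day response (mutant minus WT) to 0.03 for AT2G37470. Of the class sums, H2B turned to a log2 ratio of 0.48 for mutant 3 days against WT 3 days with median-of-ratios scaling, H2B turned to a log2 ratio of 0.01 for mutant 3 days against WT 3 days with quantile normalization, H3.3 turned to a log2 ratio of 0.15 for mutant 3 days against mutant control with median-of-ratios scaling, H2A.X turned to a log2 ratio of 0.17 for mutant 3 days against mutant control with median-of-ratios scaling, H2A.X turned to a log2 ratio of -0.03 for mutant control against WT control with median-of-ratios scaling and H2A.Z turned to a log2 ratio of -0.11 for mutant 3 days against mutant control with quantile normalization.

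With single libraries left out, 10 values that were not called turned sign. H2AXA for mutant 3 days against mutant control (-0.024) ranged over -0.05 to 0.011 and turned without mutant control replicate 2. AT4G40040 for mutant 3 days against mutant control (-0.035) ranged over -0.09 to 0.042 and turned without mutant 3 days replicate 1. HTA10 for mutant 3 days against WT 3 days (0.021) ranged over -0.025 to 0.067 and turned without mutant 3 days replicate 1 or WT 3 days replicate 3. AT5G12910 for mutant 3 days against WT 3 days (0.40) ranged over -0.12 to 0.98 and turned without mutant 3 days replicate 1. AT1G07820 for the difference of the 3 day response (mutant minus WT) (0.079) ranged over -0.028 to 0.18 and turned without WT 3 days replicate 3. HTB11 for the difference of the 3 day response (mutant minus WT) (0.049) ranged over -0.075 to 0.12 and turned without mutant 3 days replicate 1 or WT 3 days replicate 3. AT3G53650 for the difference of the 3 day response (mutant minus WT) (0.14) ranged over -0.24 to 0.38 and turned without mutant 3 days replicate 1 or WT 3 days replicate 3. HTA2 for the difference of the 3 day response (mutant minus WT) (-0.0072) ranged over -0.055 to 0.063 and turned without mutant 3 days replicate 2, mutant 3 days replicate 3, mutant control replicate 2, WT 3 days replicate 1 or WT control replicate 1. AT5G12910 for the difference of the 3 day response (mutant minus WT) (0.40) ranged over -0.12 to 0.98 and turned without mutant 3 days replicate 1. HTA6 for the difference of the 3 day response (mutant minus WT) (0.092) ranged over -0.091 to 0.24 and turned without mutant 3 days replicate 1.

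Whether the replicate numbers pair the samples is not known. Deviations of same-numbered libraries had correlations of -0.096 to 0.026, which shows no strong shared deviation but cannot settle how the samples were grown. With the replicate number as a block, 11 members rose and 31 fell in the mutant, 7 rose and 35 fell in WT, and 13 and 22 differed in response. The fit with only the groups of a comparison could not be made for the difference of responses, which uses all 4 groups. TPM keeps no read number, so that what depth limits cannot be given, and values under 1 TPM are the least certain.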
